A study of Mus musculus with 4 samples.

Results

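The comparison is between 2 colon tumour arrays: the tumour of Dmt1F/F mice (F/F below) minus the tumour of Dmt1+/+ mice (wild-type below). The 2 arrays were picked by their labels from the 4 arrays of the series. The choice of this comparison and of the gene lists below was made with earlier results of these data known. The difference was taken for 22180 genes. Of these, 12060 were kept because at least 1 of the 4 arrays gave them a signal of the median gene's level or more. The wild-type tumour came from C57BL/6 mice aged 3 months labelled CDX2; Dmt1+/+/ApcF/+, and the F/F tumour from mice of the same background and age labelled CDX2; Dmt1F/F/ApcF/+. Both groups therefore carried CDX2 and 1 floxed and 1 wild-type Apc allele, and they differed by label only in Dmt1. F usually stands for a floxed allele, one that Cre recombinase can excise, and the labels do not spell out what CDX2 stands for or which cells it acts in. There were 7 wild-type and 4 F/F animals per the design text, but which of them, or pools of them, went onto each array is not stated there. The other 2 arrays hold normal colon of the same genotypes and are used here to place each tumour level.

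Dmt1, gene symbol Slc11a2, encodes the membrane carrier that brings ferrous iron into cells, at the brush border of the gut and from endosomes after transferrin uptake. Apc restrains Wnt signalling, and its loss in the colon lets crypt-like, dividing cells accumulate while fewer cells mature into absorptive colonocytes, which take up water and salts, and mucus-making goblet cells. Colon tumours also hold white blood cells. Neutrophils and macrophages are drawn in by interleukin-1 and CXC chemokines, and B cells gather in lymphoid follicles that lie in and under the mucosa.

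Each group had 1 array, so every value below is a single log2 signal, every difference is F/F minus wild-type on the log2 scale with no replicate and no measure of error, and no test was possible. A difference of 1 is 2-fold. In whole tissue, fewer cells of a type and less RNA per cell cannot be told apart. For Slc11a2 the log2 signals were 6.64 in the wild-type tumour and 6.19 in the F/F tumour, beside 6.51 and 6.13 in wild-type and F/F normal colon. Its level was lower by 0.45 in the F/F tumour, and 5.65% of kept genes were at or below that difference. Which exons the probe set covers was not examined, so this value does not measure the deletion. Apc differed by -0.10 between the tumours. Krt20, a keratin of colon surface cells, was at 10.28 or higher on all 4 arrays, and none of the 3 erythroid and 6 exocrine pancreas genes measured reached the level for being kept.

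The tumour arrays had a Pearson correlation of 0.971 across kept genes, and the median difference was -0.02 with quartiles of -0.18 and 0.16. In the F/F tumour 205 genes were higher by 2-fold or more, 1.7% of those kept, and 61 were lower, 0.506%. Of those genes, 65 of the 205 and 32 of the 61 belong to at least 1 of 51 lists of cell type markers and pathways. The share of all kept genes that belong to a list was not counted. The lists had 922 memberships measured and 770 kept, where a gene in several lists counts once in each. At most 770 of the 12060 kept genes can therefore belong to a list, and the lists were chosen with earlier results known. Lists that share genes do not give independent counts. The tumour arrays also differed in sex-linked genes. Xist, the RNA that silences 1 X chromosome in female cells, was at 8.95 and 8.55 in wild-type and F/F normal colon, 7.11 in the wild-type tumour and 10.10 in the F/F tumour, and its difference of 2.99 was the highest of all kept genes. The Y-linked genes Uty (-1.03), Kdm5d (-0.91) and Eif2s3y (-0.66) were lower in the F/F tumour, while Sry differed by 0.03, and the normal arrays differed by at most 0.16 in Uty, Kdm5d and Eif2s3y. The sex of the animals is not in the labels, and its part in the values that follow was not tested.

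**Figure D1:**
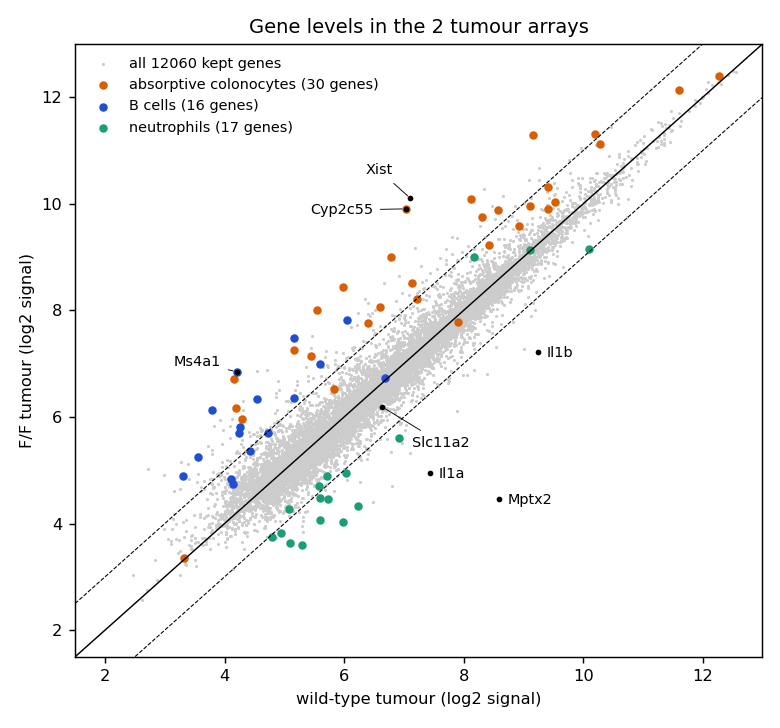
Log2 signal of each kept gene on the wild-type tumour array (x axis) and the F/F tumour array (y axis), 1 array each; the solid line marks equal levels and the dashed lines a difference of 2-fold. Colonocyte and B cell genes lie mostly above the solid line and neutrophil genes mostly below it, with Mptx2 lowest at a difference of -4.13 and Xist highest at 2.99.

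Cytokines and chemokines, which carry messages between white blood cells and call them into tissue, were lower in the F/F tumour. All 15 kept genes of the cytokine and chemokine list were below 0, where 53.8% of all kept genes were. Their median was -0.98, against -0.02 for all kept genes, and 7 of 15 were lower by 2-fold or more. Over all 24 measured members, kept or not, 23 were below 0 and the median was -0.71. Il1a, the interleukin-1 that cells release as an alarm, was at 3.51 and 2.84 in wild-type and F/F normal colon, 7.43 in the wild-type tumour and 4.95 in the F/F tumour. That is 5.6-fold lower in the F/F tumour, although still above both normal arrays. Il1b, the interleukin-1 made mainly by myeloid cells, was at 5.98, 5.11, 9.24 and 7.22 on the arrays in the same order, 4.06-fold lower in the F/F tumour. Ccl3, a chemokine for monocytes and other white blood cells, was at 4.78, 4.42, 6.81 and 4.71, so that its level in the F/F tumour lay within the range of the normal arrays. Tnf, another cytokine that drives inflammation, stood at 6.48, 5.76, 7.75 and 6.64, a difference of -1.11.

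The neutrophil-attracting CXC chemokines differed in the same direction. Cxcl2 was at 4.28 in wild-type normal colon, 4.40 in F/F normal colon, 6.79 in the wild-type tumour and 5.34 in the F/F tumour. Cxcl3 was at 2.31, 2.42, 5.32 and 4.04, and Cxcl5 at 4.87, 3.80, 8.18 and 6.87. All 3 were highest on the wild-type tumour and lower by 1.45, 1.27 and 1.30 in the F/F tumour. Cxcl1 (-0.82), the monocyte chemokines Ccl2 (-0.98) and Ccl7 (-0.39), the interleukin subunit Il23a (-0.72) and the cytokines Il11 (-0.70) and Lif (-0.59) were lower by less than 2-fold. Ccl20 differed by -0.19 and Ccl8 by -0.01.

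Cxcl2 and Cxcl3 are near-neighbours on chromosome 5 and textbook targets of NF-kB, and their promoters show the letters that the motif search below found. The sequences are the 250 bases before each RefSeq start in GRCm38.p6, on the plus strand, chr5:90903649-90903898 for Cxcl2 and chr5:90785851-90786100 for Cxcl3, and capitals mark the bases that match an NF-kB pattern (GGGA, any 4 bases, CC) on either strand.
Cxcl2: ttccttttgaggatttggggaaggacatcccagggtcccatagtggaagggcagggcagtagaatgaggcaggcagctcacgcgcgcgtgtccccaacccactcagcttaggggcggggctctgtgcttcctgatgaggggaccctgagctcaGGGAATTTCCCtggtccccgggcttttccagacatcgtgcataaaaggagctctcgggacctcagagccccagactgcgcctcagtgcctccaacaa
Cxcl3: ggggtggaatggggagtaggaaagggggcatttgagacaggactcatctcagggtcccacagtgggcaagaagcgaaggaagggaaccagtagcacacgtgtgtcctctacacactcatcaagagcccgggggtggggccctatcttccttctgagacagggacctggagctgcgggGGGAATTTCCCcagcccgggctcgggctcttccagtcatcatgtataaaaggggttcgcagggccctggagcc
Each promoter holds 2 overlapping matches, 1 per strand, that form a single run of capitals with the same letters in both genes. The pattern was searched on both strands in windows from 250 bases before to 50 after the start. It occurred in 22.9% of all 27025 promoters, in 30.2% of those of kept genes and in 5 of the 26 promoters found for the 30 genes with the lowest differences (19.2%: Acod1, Aspa, Cxcl2, Cxcl3 and Slc38a4). Among the 30 genes with the highest differences it occurred in 6 of 23 (26.1%), so the share was not higher among the lowest genes. An AP-1 pattern, TGANTCA, was held by 2 of the 26 (Il1a and Mmp12) and by 8.97% of all promoters. These matches are descriptions of letters and show no binding.

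Other genes of the interleukin-1 pathway differed less than the 2 ligands. Of 16 kept genes, 2 (Il1a and Il1b) were lower by 2-fold or more and none was higher. Il33, a related cytokine stored in the nucleus, was lower by 0.86, the decoy receptor Il1r2 by 0.82 and the receptor antagonist Il1rn by 0.56. The signalling receptor Il1r1 differed by -0.10 and its co-receptor Il1rap by -0.04. Members that process interleukin-1 family cytokines did not share one sign: the protease Casp1 (0.43), its adaptor Pycard (0.51) and its substrate Il18 (0.48) were higher, and Nlrc4 (-0.48), Casp4 (-0.22) and the pore protein Gsdmd (-0.15) lower.

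Neutrophil genes were lower in the F/F tumour. Of 25 listed genes, 23 were measured and 17 kept. Of those 17, 11 were lower by 2-fold or more and none was higher by that much, with a median of -1.11, and 15 had their highest level on the wild-type tumour array, as did 38.7% of all kept genes. Because a gene could pass the level through the array on which it was high, the 23 measured genes were counted too: 20 were below 0, and their median was -0.95. S100a8, a calcium-binding protein abundant in neutrophils, was at 3.72 in wild-type and 3.26 in F/F normal colon, 6.24 in the wild-type tumour and 4.34 in the F/F tumour. Its partner S100a9 was at 3.46, 3.04, 5.6 and 4.06, and the receptor Cxcr2, which binds the CXC chemokines above, at 4.38, 4.18, 5.73 and 4.45. For all 3 the F/F tumour lay above the higher normal array by less than 1 and below the wild-type tumour by more than 1. Clec4e, a lectin receptor of myeloid cells, differed by -1.94, the stefin Stfa2l1 by -1.69, the histamine-forming enzyme Hdc by -1.45, Retnlg by -1.30, the receptor Csf3r by -1.12 and the granule proteins Ltf and Mmp8 by -1.11 and -1.05. There were 2 exceptions, Ly6g at 8.21, 6.90, 8.17 and 9.0 and Cd177 at 9.37, 8.94, 9.11 and 9.14, both surface proteins of neutrophils.

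Macrophage genes were mostly lower, few of them by 2-fold. Of 21 kept, 16 were below 0, as were 53.8% of all kept genes. The wild-type tumour was the highest array for 16, as it was for 38.7% of all kept genes. Over the 24 measured genes 17 were below 0, with a median of -0.19. Of the 21 kept, 3 were lower by 2-fold or more and none was higher by that much, with a median of -0.26. The 3 were genes of activated macrophages. Acod1, which makes itaconate, was at 3.78, 3.56, 6.48 and 4.40, the elastase Mmp12 at 4.87, 4.59, 7.89 and 6.11, and the nitric oxide synthase Nos2 at 7.34, 7.10, 7.75 and 6.68. Arginase, Arg1, was lower by 0.93. General macrophage genes lay closer to 0: the receptor Adgre1 differed by -0.15, the complement genes C1qa, C1qb and C1qc by -0.19, -0.06 and -0.09, Cd68 by -0.48 and Lyz2 by -0.56. Cd14 (-0.57), Trem2 (-0.58), Itgam (-0.44) and Fcgr1 (-0.32) were lower too. The 5 genes above 0 included Csf1r, the growth factor receptor of the lineage (0.44), and the mannose receptor Mrc1 (0.22). They also included Mertk, which serves the clearing of dead cells (0.91). The mast cell proteases Mcpt2 (-1.17), Mcpt1 (-1.09) and Cpa3 (-0.99) were lower, and Kit, which other colon cells also express, was higher by 0.39. Mcpt2 and Mcpt1 were also lower in F/F than in wild-type normal colon (-0.91 and -0.65). Clec7a, a receptor for fungal glucans on myeloid cells, belongs to no list and was lower by 1.26.

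Acute phase, JAK-STAT3 and NF-kB genes held few 2-fold differences, all of them lower. Hp, the haemoglobin-binding acute phase protein haptoglobin, was at 5.14, 5.78, 7.10 and 5.33, and Saa3, another acute phase protein, at 6.58, 6.77, 8.39 and 6.81. Both were therefore within the range of the normal arrays, or within 0.04 of it, in the F/F tumour. Apart from these 2, the 23 kept genes of JAK-STAT3 signalling held no 2-fold difference. Of them 7 were above 0 and 16 below, and their median was -0.09, with Stat3 at -0.09, Jak1 at 0.10, the feedback inhibitor Socs3 at -0.21, Lcn2, an iron-siderophore binding protein, at -0.95 and Reg3b, an antimicrobial lectin, at 0.71. In the list of NF-kB feedback targets 2 of 14 were lower by 2-fold or more, the prostaglandin synthase Ptgs2 (6.47, 5.51, 9.20 and 8.01) and Tnfaip2 (5.24, 5.43, 6.39 and 5.22), and 12 were below 0, while the inhibitors Nfkbia (-0.28) and Tnfaip3 (-0.39) differed by less. Hpgd, which breaks prostaglandins down, was higher by 1.02, and its level of 9.39 in the F/F tumour lay between 8.36 in the wild-type tumour and 9.87 and 10.29 in normal colon.

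Among matrix metalloproteinases and their inhibitors, 12 of 13 kept genes were highest on the wild-type tumour, as were 38.7% of all kept genes. Their median was -0.53. Over all 14 measured genes, 13 were below 0 and the median was -0.57. In the F/F tumour 3 were lower by 2-fold or more, all of them also members of the neutrophil or macrophage list. Besides Mmp12, these were the gelatinase Mmp9 (-1.08) and the neutrophil collagenase Mmp8 (-1.05, and -0.98 after quantile normalization). Mmp10 (-0.75) and Mmp13 (-0.60), which reached 8.60 and 8.89 in the F/F tumour from 3.83 and 3.76 in F/F normal colon, were high in both tumours. In the interferon list 9 of 27 kept genes were above 0 and 1 was lower by 2-fold or more, the chemokine Cxcl11 (-1.03). Its relatives Cxcl10 (-0.88) and Cxcl9 (-0.85) were lower too, the antiviral genes Isg15 (-0.04), Mx2 (0.00) and Rsad2 (0.14) differed little, and the median was -0.15.

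**Figure D2:**
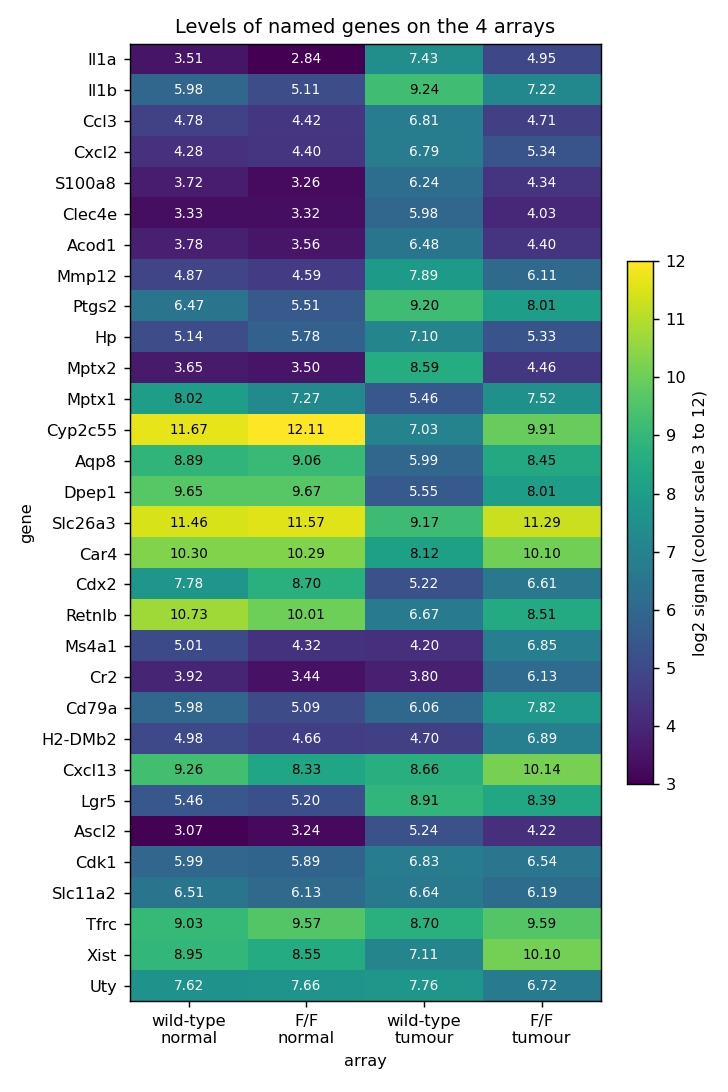
Log2 signal of selected genes (rows) on the 4 arrays (columns, 1 array each), printed in each cell and coloured from 3 to 12; colours compare arrays within a row, not genes. Il1a, Il1b, Cxcl2 and S100a8 peak on the wild-type tumour, Cyp2c55, Aqp8 and Car4 are lowest there, and Ms4a1, Cr2 and Cd79a are highest on the F/F tumour.

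The single largest difference was that of Mptx2, and its relative Mptx1 differed in the opposite direction. Both encode mucosal pentraxins, secreted proteins of intestinal epithelium. Mptx2 was at 3.65 in wild-type normal colon, 3.50 in F/F normal colon, 8.59 in the wild-type tumour and 4.46 in the F/F tumour, which is 17.5-fold lower in the F/F tumour. Mptx1 was at 8.02, 7.27, 5.46 and 7.52, which is 4.17-fold higher. The wild-type tumour was thus high in Mptx2 and low in Mptx1, and the F/F tumour close to normal colon in Mptx1 and within 1 of it in Mptx2. The gene pair can share probe signal, so the level of each is uncertain as to the member. Their promoters are shown because the genes are close relatives with opposite differences. The sequences are the 250 bases before the RefSeq start in GRCm38.p6, at chr1:174330268-174330517 on the plus strand for Mptx1 and chr1:173277757-173278006 on the minus strand for Mptx2, and capitals mark the 6 runs of at least 12 bases that are identical in the alignment of the pair.
Mptx1: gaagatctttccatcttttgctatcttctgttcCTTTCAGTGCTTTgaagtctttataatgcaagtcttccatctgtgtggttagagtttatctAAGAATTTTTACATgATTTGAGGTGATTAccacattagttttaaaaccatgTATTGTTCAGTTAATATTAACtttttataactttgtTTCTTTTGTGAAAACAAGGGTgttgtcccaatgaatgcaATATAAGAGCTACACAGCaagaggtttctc
Mptx2: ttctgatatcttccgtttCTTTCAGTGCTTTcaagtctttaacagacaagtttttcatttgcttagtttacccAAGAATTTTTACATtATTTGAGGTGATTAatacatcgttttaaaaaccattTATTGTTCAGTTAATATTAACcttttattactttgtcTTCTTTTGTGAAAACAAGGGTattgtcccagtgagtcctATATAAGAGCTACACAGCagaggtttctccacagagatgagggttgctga
Of 228 aligned bases, 197 (86.4%) were identical, and the runs in capitals held 101 bases.

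Paneth cells are secretory cells at the base of small intestinal crypts, and colon tumours can express their antimicrobial products. Of 11 kept genes of the Paneth list, Mptx1 and Mptx2 included, 7 were below 0 and 7 highest on the wild-type tumour, with a median of -0.34 in tumour and -0.70 in normal colon. Mptx2 was the 1 gene lower by 2-fold or more. Lysozyme, Lyz1, was at 6.43, 4.93, 10.75 and 10.09, a difference of -0.66. The defensin Defa24 was at 4.53, 4.44, 8.88 and 8.44, a difference of -0.43, and Pla2g2a, a secreted phospholipase, at 8.07, 5.55, 10.25 and 9.70, a difference of -0.55. These 3 were high in both tumours. Defa21 (0.30) and Defa22 (0.17) were slightly higher in the F/F tumour, and defensin probe sets may also read transcripts of related defensins. Ang4, an antimicrobial ribonuclease that goblet cells also make, was at 9.63, 8.68, 7.89 and 8.94, higher by 1.05. Slc30a2, a zinc carrier, was at 4.91, 3.87, 9.0 and 7.27, lower by 1.74 in the F/F tumour. No other of the 12 kept zinc genes passed 2-fold, the metallothioneins Mt3 (-0.66), Mt4 (-0.55), Mt2 (-0.48) and Mt1 (-0.22) lying below 0.

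Genes of mature absorptive colonocytes were higher in the F/F tumour. All 30 measured genes were kept, 17 were higher by 2-fold or more and none lower, with a median of 1.34 and a range from -0.12 to 2.88. For 29 of the 30 the wild-type tumour was the lowest array, as it was for 29.6% of all kept genes. For 28 a normal array was the highest, as it was for 5523 of all 12060 kept genes. The F/F tumour was thus intermediate for most of them. Cyp2c55, a cytochrome P450 of fatty acid metabolism, was at 11.67 and 12.11 in wild-type and F/F normal colon, 7.03 in the wild-type tumour and 9.91 in the F/F tumour, 7.35-fold higher in the F/F tumour. With the mean of its probe sets the difference was 1.48 and not 2.88. The water channel Aqp8 was at 8.89, 9.06, 5.99 and 8.45, and the dipeptidase Dpep1 at 9.65, 9.67, 5.55 and 8.01. Slc26a3, which exchanges chloride for bicarbonate at the colon surface, was at 11.46, 11.57, 9.17 and 11.29, and the carbonic anhydrase Car4 at 10.30, 10.29, 8.12 and 10.10. In these last 2 genes the F/F tumour came within 0.30 of the nearer normal array.

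The lipid genes Fa2h (2.21) and Fabp2 (2.08), Tmigd1 (1.97), the meprin proteases Mep1a (1.46) and Mep1b (1.37) and the hormone precursor Guca2a (1.30) were also higher. Fabp2 was at 10.09, 10.64, 5.17 and 7.25, so it stayed more than 2.5 below normal colon in the F/F tumour. Structural genes of the brush border were higher by less than 2-fold: Cdhr2 by 0.99, Cdhr5 by 0.89, Myo1a by 0.81 and Vil1 by 0.51. Guca2b (-0.12), Lypd8 (0.12) and the bile acid carrier subunit Slc51a (0.02) differed little.

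Genes for salt and water transport were higher in part. Of 27 kept, 21 were above 0, 11 were higher by 2-fold or more and none lower, with a median of 0.73. Of the 11, Aqp8, Slc26a3, Car4, Car1 and Scnn1a also belong to the colonocyte list and were counted there. Those higher by 2-fold or more included the water channel Aqp4 (10.94, 10.44, 8.34 and 10.28), the sodium-proton exchanger Slc9a2 (1.41), the sodium channel subunit Scnn1a (1.39), the cytosolic carbonic anhydrases Car2 (1.17) and Car1 (1.12), the magnesium channel Trpm6 (1.15) and the butyrate carrier Slc5a8 (1.10). The mineralocorticoid receptor Nr3c2 (0.72) and the genes Hsd11b2 (0.91) and Sgk1 (0.73), which act with it, were higher by less. Among genes of chloride secretion the carrier Slc12a2 (-0.22) and the potassium channel genes Kcnq1 (-0.12), Kcnn4 (-0.07) and Kcne3 (-0.33) were below 0, and the chloride channel Cftr was at 0.50. The other sodium channel subunits Scnn1b and Scnn1g were at 0.07 and 0.00.

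Enzymes that process lipids and foreign compounds were higher in part. Among cytochromes P450, 6 of 15 kept genes were higher by 2-fold or more and none lower. Besides Cyp2c55 these were Cyp4f14 (7.55, 7.94, 4.17 and 6.71), Cyp3a13 (8.98, 9.66, 6.40 and 8.14), Cyp2c65 (9.32, 10.29, 4.29 and 5.97), Cyp2s1 (1.51) and Cyp2d34 (1.20). Cyp2c55, Cyp4f14 and Cyp2c65 also belong to the colonocyte list. The median of 0.63 rested on the level filter, since it was 0.21 over the 20 measured genes and 0.92 with the filter on the tumour arrays alone. It was also no higher than in normal colon, where it was 0.64. Among conjugation enzymes and carboxylesterases 6 of 22 were higher by 2-fold or more: the retinal dehydrogenase Aldh1a1 (9.74, 10.44, 5.44 and 7.30), the glutathione transferase Gstm3 (1.59), the sulfotransferases Sult1a1 (1.5) and Sult1d1 (1.10), the alcohol dehydrogenase Adh1 (1.06, and 0.43 with the mean of its probe sets) and Ces2a (1.0). The glutathione transferase Gsta4 was lower by 0.78.

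Transcription factors of the differentiated gut were higher in the F/F tumour in 4 of 18 cases by 2-fold or more, and none was lower by that much. Cdx2, the homeobox factor that specifies intestinal epithelium, was at 7.78 and 8.70 in wild-type and F/F normal colon, 5.22 in the wild-type tumour and 6.61 in the F/F tumour. The vitamin D receptor Vdr was at 9.26, 9.64, 7.61 and 8.99, the nuclear receptor Nr5a2 at 8.26, 8.47, 5.86 and 7.22, and Klf4, a factor of non-dividing surface and goblet cells, at 9.21, 9.46, 7.56 and 8.78. For these 4 genes the F/F tumour was between the wild-type tumour and both normal arrays. Hnf4a (0.45), Hnf4g (0.51), Cdx1 (0.44) and the bile acid receptor Nr1h4 (0.55) were higher by less, and Gata6 (-0.04), Elf3 (0.03), Klf5 (-0.11) and Ehf (-0.08) hardly differed. A 7-base core of the HNF4 motif, CAAAGTC, was held by 4 of the 23 promoters found for the 30 highest genes (17.4%: Aldh1a1, Btnl1, Mettl7b and Tmigd1), 1 of 26 for the 30 lowest and 5.0% of all. A C/EBP pattern, TTGCNNAA, was held by 7 of the 23 (30.4%), 5 of the 26 (19.2%) and 12.2% of all. Both counts are small and describe letters only.

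Goblet cell genes were higher by smaller amounts. All 20 were kept, 18 were above 0, 5 were higher by 2-fold or more and the median was 0.50. Retnlb, an antimicrobial secreted protein, was at 10.73, 10.01, 6.67 and 8.51. Fcgbp (1.08), Fer1l6 (1.06), Ang4 and Bcas1 (1.05, and 0.63 with the mean of its probe sets) completed the 5. The mucus proteins Clca1 and Zg16 were higher by 0.98 and 0.88, while the main mucin Muc2 (0.09) and the trefoil peptide Tff3 (0.09) hardly differed. Atoh1, which commits cells to the secretory lineage, was at 7.66, 8.47, 6.84 and 7.66. Among 11 kept enteroendocrine genes 2 passed 2-fold, the hormones Gcg (8.0, 7.92, 5.71 and 6.98) and Sst (7.14, 7.62, 4.62 and 5.74), while the hormone Pyy, which was higher in both tumours than in normal colon, differed by -0.49. Among 6 kept tuft cell genes Rgs13 was higher by 1.46 and Avil lower by 0.67.

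B cell genes were higher in the F/F tumour than on any other array. Of 20 listed genes, 18 were measured and 16 kept. All 16 were above 0, 11 were higher by 2-fold or more, and the median was 1.5. All 16 had their highest level on the F/F tumour, where 15.5% of all kept genes did. Cr2, Blk, Pax5, Cd22 and Fcmr were among those that reached the level only on that array, which fixed their highest array in advance. The 18 measured genes were also all above 0, with a median of 1.5. Ms4a1, which encodes CD20, was at 5.01 in wild-type normal colon, 4.32 in F/F normal colon, 4.20 in the wild-type tumour and 6.85 in the F/F tumour, 6.27-fold higher. Cr2, the complement receptor of B cells and follicular dendritic cells, was at 3.92, 3.44, 3.80 and 6.13, and the adaptor Bank1 at 5.6, 4.91, 5.16 and 7.49. Cd79a, part of the B cell receptor, was at 5.98, 5.09, 6.06 and 7.82. In each of these 4 the other 3 arrays spanned less than 1 and the F/F tumour lay more than 1 above them. The BAFF receptor Tnfrsf13c (1.80), the kinase Blk (1.69), the lineage factor Pax5 (1.58), Cd22 (1.55), Fcmr (1.45), Cd37 (1.40) and Ebf1 (1.19) followed, and Bcl11a, which was high in both tumours, differed by 0.04.

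Genes around the B cell also differed. Cxcl13, the chemokine that draws B cells into follicles, was at 9.26, 8.33, 8.66 and 10.14. The other 8 kept genes of the follicle list were within 2-fold, with lymphotoxin, Ltb, at 0.61 and Bcl6, a germinal centre factor, at -0.23. In MHC class II presentation all 10 kept genes were above 0, but only 3 by 2-fold or more: H2-DMb2 (4.98, 4.66, 4.70 and 6.89), H2-Eb2 (4.04, 3.23, 3.96 and 5.50) and H2-Ob (4.3, 4.27, 4.24 and 5.32), a chain of the B cell modulator H2-O. The main class II chains H2-Aa (0.25), H2-Ab1 (0.21) and H2-Eb1 (0.16) and their activator Ciita (0.28) differed by less. Genes of antibody-secreting plasma cells stayed within 2-fold, with a median of 0.09 over 9 kept genes. Jchain, which joins secreted antibodies, was at 10.33, 9.35, 10.01 and 10.11, and Ighm at 11.73, 10.72, 11.60 and 11.70. Over 20 kept immunoglobulin genes and segments, a list made after the values were seen, the median was 0.20 and 2 were higher by 2-fold or more, a kappa light chain variable segment (2.33) and the constant region Ighg3 (1.69).

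T and NK cell genes were mostly higher by small amounts. Of 17 kept, 12 were above 0, as were 46.2% of all kept genes, and the median was 0.26. Over the 24 measured genes 17 were above 0, with a median of 0.23. Cd4, which helper T cells and some macrophages carry, was at 4.53, 4.44, 4.47 and 5.68, the T cell receptor subunit Cd3e differed by 0.71, and Foxp3, the factor of regulatory T cells, by 0.59. The killer protease Gzmb was at 5.70, 6.00, 4.93 and 4.04, lower by 0.89. The other kept members below 0 were Gzma (-0.31), Cd3g (-0.17), Nkg7 (-0.13) and Prf1 (-0.19). Lymphocyte genes in no list among the 30 highest were the factor Ikzf3 (5.07, 4.86, 4.31 and 6.29) and the inhibitory receptor Btla (4.52, 3.77, 4.13 and 5.96). The kinase Stk10 (8.69, 9.31, 6.35 and 8.21), also in no list, was lowest on the wild-type tumour and highest in normal colon. All 16 kept B cell genes were highest on the F/F tumour instead, the only array on which some of them reached the level. Of the 16, 5 were lowest on the wild-type tumour, a share near the 29.6% of all kept genes. M cell genes, which mark the epithelium over follicles, had a median of -0.21 over 8 kept genes.

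**Figure D3:**
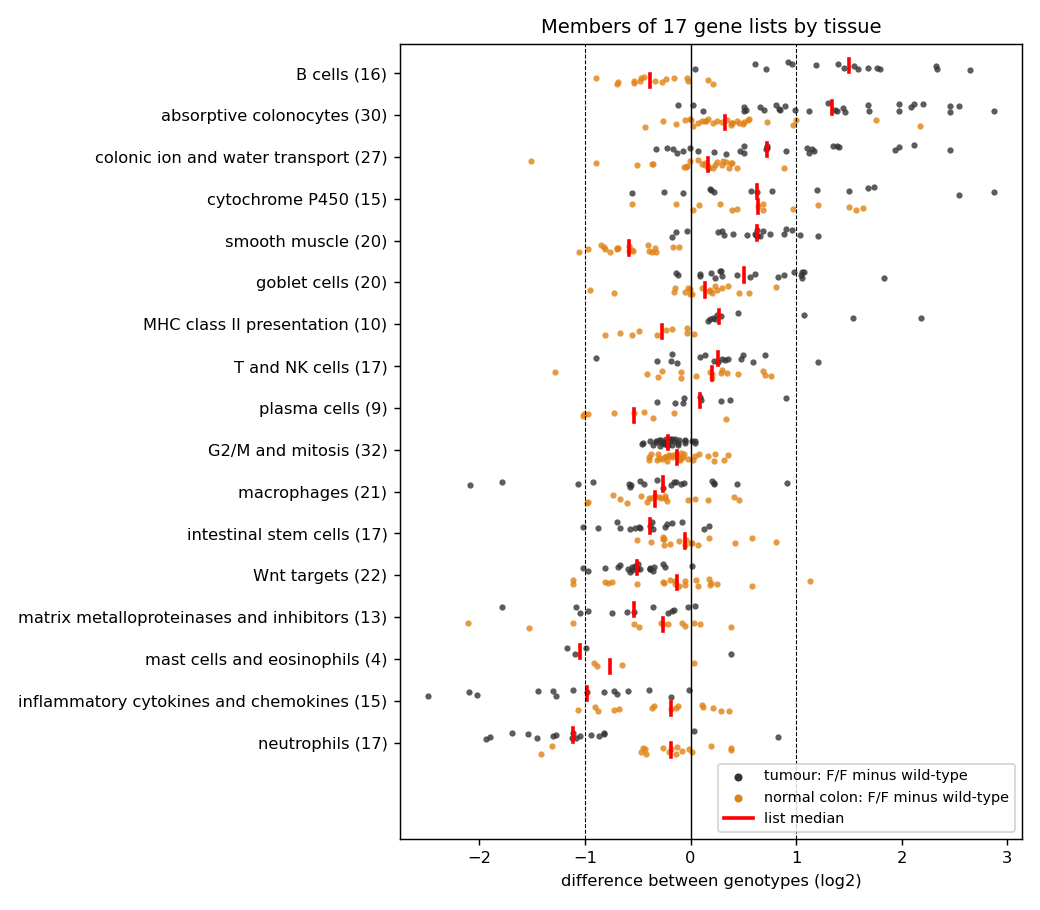
Log2 difference between genotypes (x axis, F/F minus wild-type) of each kept member of 17 gene lists (rows, number of members in brackets), in tumour (dark points) and in normal colon (orange points), with the list median as a red bar; dashed lines mark 2-fold. B cell members lie above 0 in tumour, with a median of 1.5, and mostly below 0 in normal colon (-0.39), and neutrophil members have a median of -1.11 in tumour and -0.18 in normal colon.

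Wnt targets were lower in the F/F tumour, nearly all by less than 2-fold. Of 22 kept genes, 21 were below 0 and highest on the wild-type tumour, but 1 was lower by 2-fold or more, and the median was -0.51 in a range from -1.02 to 0.02. That gene was Ascl2, a factor of stem cells, at 3.07, 3.24, 5.24 and 4.22, for which quantile normalization gave -0.97. Lgr5, the stem cell receptor, was at 5.46, 5.20, 8.91 and 8.39, and Axin2, which feeds back on the pathway, at 6.06, 6.32, 8.92 and 8.37. Both were therefore far above normal colon in either tumour. Notum (-0.51), Prox1 (-0.50), Sox9 (-0.36), Myc (-0.38) and Ccnd1 (-0.26) were below 0, and Apcdd1 was at 0.02. Stem cell genes, some of which are Wnt targets too, had a median of -0.38 over 17 kept genes, with Igfbp4 at -0.88 and Smoc2 at -0.70. Genes of injured epithelium had a median of -0.28 over 14, with none past 2-fold and the tight junction gene Cldn4 at -0.82.

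Genes of cell division were lower by still less. In the G2/M list 29 of 32 genes were below 0 and highest on the wild-type tumour, none passed 2-fold, and the median was -0.22 with a range from -0.46 to 0.04. Cdk1, the mitotic kinase, was at 5.99, 5.89, 6.83 and 6.54, Top2a at 8.46, 8.19, 9.30 and 8.94, and the proliferation marker Mki67 at 9.37, 9.16, 9.82 and 9.67. Differences of this size were common among all kept genes, whose lower quartile was -0.18. The median was -0.15 for 27 G1/S genes, with the licensing factor Cdc6 at -0.36, and -0.22 for 23 genes of ribosome biogenesis, with Nop58 at -0.40 and nucleophosmin, Npm1, at -0.31. Targets of p53 had a median of -0.02 over 11 genes, with Cdkn1a at 0.30.

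Iron genes as a list did not stand away from the rest, although single members differed in opposite directions. Of 38 listed genes 36 were measured and 29 kept, with a median of -0.08, 1 lower by 2-fold or more and none higher. Tfrc, the transferrin receptor, whose messenger RNA is held stable by iron regulatory proteins when iron is scarce, was at 9.03 in wild-type normal colon, 9.57 in F/F normal colon, 8.70 in the wild-type tumour and 9.59 in the F/F tumour. It was higher in F/F in both tissues, by 0.89 in tumour and 0.55 in normal colon. Fth1, the heavy chain of the iron store ferritin, was at 11.56, 11.86, 11.48 and 11.39 and so differed by -0.08. The exporter ferroportin, Slc40a1, was at 8.83, 9.10, 7.97 and 8.32, and the ferroxidase Heph that works with it at 8.83, 9.14, 7.31 and 8.22. Both were lowest on the wild-type tumour. Cp, the related ferroxidase of plasma, was at 6.11, 5.39, 8.18 and 7.28, lower by 0.90. Hamp, the peptide hormone that shuts ferroportin down, was at 4.07, 3.35, 5.21 and 4.66. Among metalloreductases Steap4 (-1.03) and Steap1 (-0.57) were lower and Steap3, which serves the transferrin cycle, was higher by 0.61. The iron regulatory proteins Aco1 (0.04) and Ireb2 (-0.09), the ferritin receptor Ncoa4 (0.07) and the zinc and iron carrier Slc39a14 (-0.03) lay near 0. Fbxl5, which senses iron and marks Ireb2 for breakdown, was at -0.36, and Epas1, a hypoxia factor of iron uptake genes, was at 0.54.

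Lists that touch iron-dependent steps held 1 difference of 2-fold or more. The median was 0.05 over 17 genes of iron-sulfur cluster and heme synthesis, with ferrochelatase, Fech, at 0.38, and -0.08 over 15 genes of ferroptosis and glutathione. In the latter the cystine carrier Slc7a11 was at 4.34, 3.76, 7.88 and 7.00, the quinone reductase Nqo1 at 6.96, 7.95, 5.39 and 6.18, and the lipid peroxidase Gpx4 differed by 0.03. Hypoxia genes had a median of 0.01 over 20, with 1 higher by 2-fold, the carbonic anhydrase Car9 (1.04, and 0.90 with the mean of its probe sets), and Vegfa at -0.08. Oxidative phosphorylation genes were higher by small amounts in 25 of 26 cases, with a median of 0.22, and 25 had their lowest level on the wild-type tumour. Sdhc (0.46) and Cox5b (0.44) were highest among them. Fatty acid oxidation genes had a median of 0.29 over 15, with Acads and Slc25a20 at 0.54 each and the carnitine transferase Cpt1a at 0.44.

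Stromal lists differed from one another. In smooth muscle 17 of 20 genes were above 0, with a median of 0.63 and 2 higher by 2-fold or more, Pgm5 (7.96, 7.55, 5.73 and 6.95) and Tpm2 (6.99, 6.60, 5.07 and 6.11). Desmin, Des, was at 7.55 in the wild-type tumour and 8.51 in the F/F tumour. All 20 genes were highest on a normal array, as were 5523 of all 12060 kept genes. How much muscle each tumour piece held is not in the labels, and its part in the other values was not tested. Fibroblast genes had a median of -0.08 over 20 and no 2-fold difference, with the collagen Col1a1 at -0.64, fibronectin, Fn1, at -0.58 and Dpt at 0.83. Endothelial genes had a median of 0.10 over 13 and adipocyte genes 0.13 over 10. Posterior Hox genes, which mark the distal colon, had a median of 0.00 over 6 kept genes, with Hoxd13 at 8.58 and 8.35 in the tumours, and proximal genes 0.10 over 8. Single members went both ways between the tumours, the Hox genes from -0.39 (Hoxd11) to 0.28 (Hoxb13) and the proximal genes from -0.88 (the factor Onecut2) to 0.95 (the bile acid carrier Slc10a2). In normal colon the same medians were -0.91 and 1.04. Housekeeping genes had a median of -0.01 over 9.

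**Figure D4:**
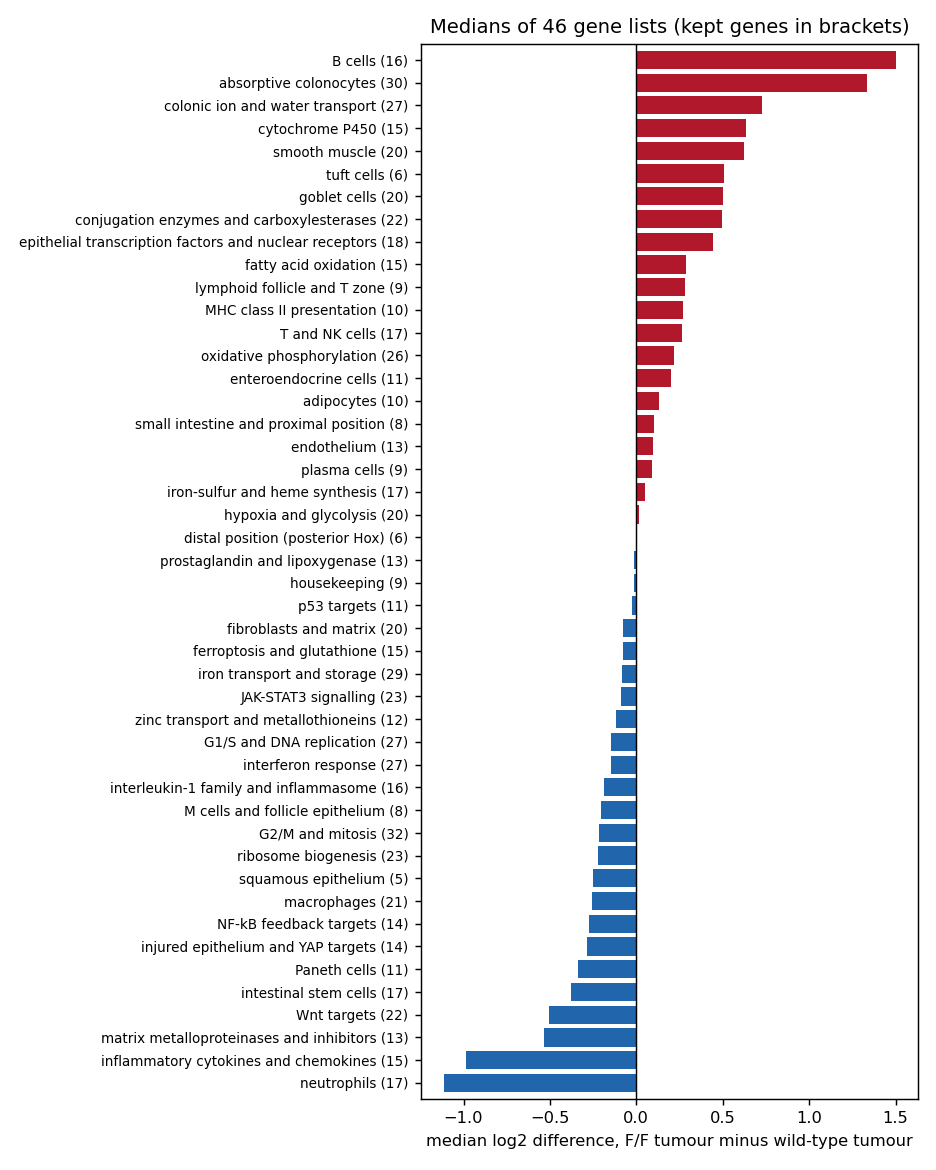
Median log2 difference (x axis, F/F tumour minus wild-type tumour, 1 array each) of the 46 gene lists with at least 5 kept genes (rows, number of kept genes in brackets). The bars run from 1.5 for B cells and 1.34 for colonocytes to -0.98 for cytokines and chemokines and -1.11 for neutrophils, beside -0.02 for all kept genes.

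Genes outside the lists made up 140 of the 205 higher and 29 of the 61 lower genes. Besides those named above, the 30 highest held the ceramidase Acer1 (7.43, 7.98, 5.18 and 7.22), Btnl1, a butyrophilin-like protein that shapes the T cells of gut epithelium (7.52, 8.23, 3.83 and 5.83), Mettl7b (1.83), 1810065E05Rik (1.99) and BC018473 (2.30). Acer1, Btnl1 and Mettl7b were lowest on the wild-type tumour and highest in normal colon, as colonocyte genes were. The 30 lowest held the lipid carrier Mfsd2a (7.00, 6.08, 8.05 and 6.79), the aspartoacylase Aspa (6.57, 6.70, 8.54 and 7.31), the amino acid carrier Slc38a4 (5.42, 3.96, 7.99 and 6.78), the matrix peroxidase Pxdn (-1.46), Svopl (-1.48), Lix1 (-1.24) and the small GTPase Rem2 (-1.22). These 7 were highest on the wild-type tumour. 2210407C18Rik, at 10.07, 9.85, 9.13 and 7.89, was lowest on the F/F tumour.

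The genotype difference in tumour was set beside that in normal colon, which shares no array with it. In F/F normal colon 86 genes (0.713% of those kept) were 2-fold or more above wild-type and 109 (0.904%) as far below it, 1.62% in either direction. Of the 205 genes higher in the F/F tumour, 13 were also higher in F/F normal colon, 6.34% of the tumour genes and 15.1% of the normal colon genes, and of the 61 lower genes 5 were also lower (8.20% and 4.59%). The 5 were Cxcl5, Lilrb4a, Slc30a2, Slc38a4 and Vmn1r157. The 13 included the colonocyte genes Slc37a2 (6.74, 8.92, 5.45 and 7.15) and Tmigd1 (8.4, 9.40, 4.20 and 6.17) and the clock genes Dbp and Nr1d1. In the opposite direction, 8 genes were higher in the F/F tumour and lower in F/F normal colon (3.90% and 7.34%), and none was the reverse. Across the 12060 genes, which are not independent, the differences had a Pearson correlation of 0.147 and a Spearman correlation of 0.172. By list, the B cell median was 1.5 in tumour and -0.39 in normal colon, smooth muscle 0.63 and -0.58, colonocytes 1.34 and 0.32, cytokines and chemokines -0.98 and -0.19, and neutrophils -1.11 and -0.18. In several other lists the normal colon median was as far from 0 or farther. These included macrophages (-0.26 and -0.34), interferon response (-0.15 and -0.34), injured epithelium (-0.28 and -0.36) and Paneth cells (-0.34 and -0.70). They also included conjugation enzymes (0.50 and 0.51), fatty acid oxidation (0.29 and 0.41) and immunoglobulin segments (0.20 and -1.25). Further such lists were adipocytes (0.13 and 1.24), enteroendocrine cells (0.20 and 0.49), plasma cells (0.09 and -0.53), fibroblasts (-0.08 and -0.33) and MHC class II presentation (0.27 and -0.27). With 1 array per group, whether the genotype difference itself differs between the tissues could not be tested.

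**Figure D5:**
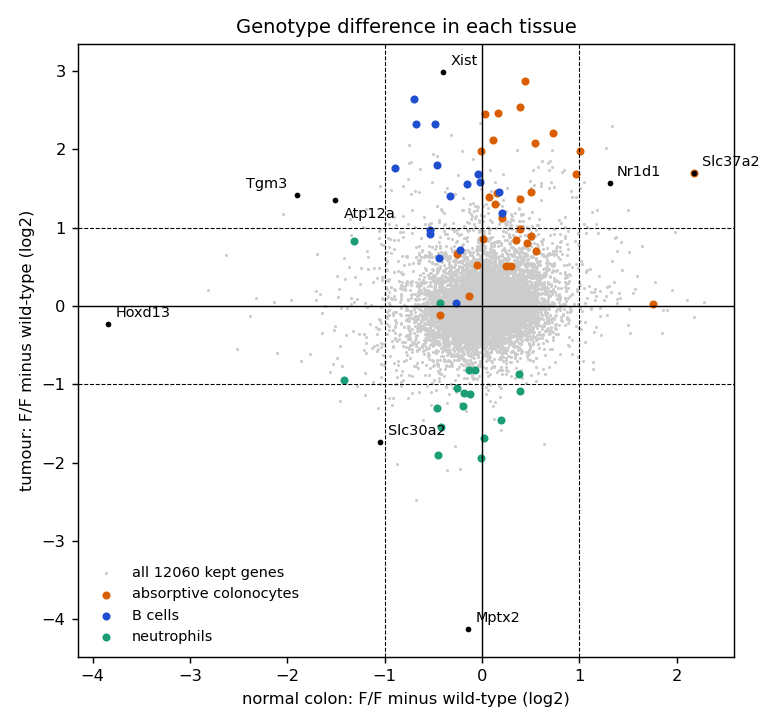
Log2 difference between genotypes (F/F minus wild-type) in normal colon (x axis) and in tumour (y axis) for each kept gene; each axis rests on 1 array per genotype and dashed lines mark 2-fold. B cell and neutrophil genes spread along the tumour axis more than along the normal colon axis, Slc30a2 is 2-fold lower in both, and Tgm3 and Atp12a are higher in tumour and lower in normal colon.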

How the data were processed

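RNA of normal colon and colon tumours of 2 Dmt1 genotypes was measured on 4 Affymetrix whole-transcript arrays, 1 per group. The deposited values are log2 signals, 1 per probe set and array. Per the submitters' processing notes, the authors used RMA and oligo. RMA brings the arrays to a common distribution, so differences in total RNA are not kept, and it gives no detection call. The table had 41345 probe sets, and no column of another sample (0) was present. Of these, 23521 had exactly 1 gene in the platform annotation, 1814 several and 16010 none. Symbols were updated through gene IDs to RefSeq (GRCm38.p6) for 23328 probe sets, and 193 kept the annotation's symbol. For the 1082 genes with more than 1 probe set, that with the highest mean over the 4 arrays was taken. Genes whose highest value reached log2 4.67, the median of all gene means, were kept (12060 of 22180). Near-identical family members (Mptx, Defa, Cyp2c, Ces, Ly6, immunoglobulin segments) may share signal.

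Differences are single log2 values, counted at 1 or more (2-fold), with no test. The number of arrays limits the precision. Named genes are the 30 highest and 30 lowest, Slc11a2, Apc, and list members, the 4 with the largest difference first; other names were chosen after their values were seen. The gene lists and the comparison were chosen with earlier results of these data known, and the lists of sex-linked genes, clock genes and immunoglobulin segments after the values were seen. Promoters are RefSeq windows in GRCm38.p6, found for 9445 kept genes and aligned with Biopython 1.88. The counting was tested on simulated data. Alternatives were no level filter, a filter on the arrays compared, centring, quantile and cyclic loess normalization (limma 3.58.1 in R 4.3.3), the mean of a gene's probe sets and a threshold of log2 1.5. Tables were made with pandas 2.3.3 in Python 3.11.15.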

Additional observations from a re-analysis of the deposited data

Results flagged for a closer look

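8 genes differed by 2-fold or more in opposite directions in the 2 tissues, higher in the F/F tumour and lower in F/F normal colon. They made up 3.90% of the genes higher in tumour, where 0.904% of all kept genes were lower in F/F normal colon. They were 7.34% of the genes lower in normal colon, where 1.7% of all kept genes were higher in the F/F tumour. The difference between the tissues was not tested, since each group had 1 array. Tgm3, a transglutaminase, was at 9.44 in wild-type normal colon, 7.53 in F/F normal colon, 9.26 in the wild-type tumour and 10.68 in the F/F tumour, a difference of 1.42 in tumour and -1.91 in normal colon. Atp12a, the colonic proton-potassium pump, was at 9.63, 8.12, 9.09 and 10.44 on the arrays in the same order, 1.35 in tumour and -1.51 in normal colon. For both, and for Cyp2d13 (1.53 and -1.05), the F/F tumour was the highest array. St8sia5, a sialyltransferase, was at 5.78, 3.73, 4.54 and 5.71, which is 1.17 in tumour and -2.05 in normal colon, and the wild-type normal array was its highest. The same array was highest for Apol7c (1.24 and -1.19), Cyp2d12 (1.15 and -1.13), Sycn (1.11 and -1.36) and the gasdermin Gsdmc3 (1.0 and -1.22). Posterior Hox genes, which mark the position along the colon, differed between genotypes by a median of -0.91 in normal colon, where in tumour the median was 0.00. The part of position in the opposite differences was not tested.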

How the results depend on the processing

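At 2-fold 205 genes were higher and 61 lower, and the counts lay from 197 to 225 and from 57 to 72 under the 6 other settings of filter, normalization and probe set. The share of calls that were higher was 77.1%, and 75.8% to 79.0% under these settings. At a threshold of log2 1.5 the counts were 65 and 13. Of 899 genes compared, 878 kept their sign under every setting that gave a value, and no gene past 2-fold changed sign. With the mean of a gene's probe sets, 8 genes past 2-fold moved by over 1.5 times: Cyp2c55 to 1.48, Slamf6 to 0.85, Abat to 0.59, Adh1 to 0.43, Bcas1 to 0.63, Mef2c to 0.61, Phgr1 to 0.64 and C130026I21Rik to 0.47. Of 47 medians 43 kept their sign; that of squamous epithelium went from -0.25 to 0.04 without the level filter, and those of housekeeping, hypoxia and prostaglandin genes lay within 0.08 of 0 in every setting. Without the filter the medians of neutrophils (-0.95), cytokines (-0.71), cytochromes P450 (0.21), enteroendocrine (0.06) and tuft cells (0.22) moved by over 0.1 towards 0; with the filter on the arrays compared, those of cytochromes P450 (0.92), enteroendocrine cells (0.53) and conjugation enzymes (0.68) moved away from it. No paired analysis was possible because each group has 1 array, and no array could be left out for the same reason. Log2 4.67 is the median of all gene means, so levels below it lie in the lower part of the range. No detection call tells such levels from background, and differences between them are uncertain in size.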

Other observations

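Of 13 kept clock genes, a list made after the values were seen, 8 were above 0 and 5 below 0 in the F/F tumour, and 2 were higher by 2-fold or more. Dbp, an output factor of the clock, was at 6.43 in wild-type normal colon, 7.49 in F/F normal colon, 5.36 in the wild-type tumour and 6.94 in the F/F tumour. Nr1d1, the clock repressor REV-ERB alpha, was at 6.77, 8.08, 6.11 and 7.69 on the same arrays. Ciart (0.73 in tumour and 0.89 in normal colon), Cry2 (0.67 and 0.82), Per3 (0.63 and 0.65), Nr1d2 (0.54 and 0.97) and Per1 (0.45 and 1.07) were higher too, and Arntl, which peaks at the opposite phase, was lower (-0.37 and -0.67). The other 4 below 0 in tumour were Clock (-0.21 and -0.23), Npas2 (-0.13 and -0.10), Bhlhe40 (-0.18 and 0.23) and Cry1 (-0.03 and 0.08). The median was 0.46 in tumour and 0.65 in normal colon. The time of day at which tissue was taken is not in the labels, and its part was not tested.

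Probe sets without a gene name in the annotation also differed. Of the 7321 unnamed probe sets that reached the level, 135 were 2-fold or more higher in the F/F tumour and 115 as much lower, and of 871 assigned to several genes 8 and 12. Among 12464 probe sets of 1 gene the counts were 211 and 62.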
